A study of Mus musculus with 884 samples.

Results

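The cells described here are the G1-sorted cells of a single-cell replication timing study, in which a cell is sorted by its DNA content, its DNA is amplified and sequenced, and bins along the chromosomes are called replicated or unreplicated. They were chosen by the sorting gate in the name of the library, and they number 79 of 884 cells; the other 805 were sorted from S phase. The study followed CBMS1 mouse embryonic stem cells, a female line from a cross of CBA and MsM mice, from culture in 2i/LIF (d0) through d2 to d7 of differentiation, with epiblast-like cells as the first stage and floating aggregates towards neurectoderm after that. Epiblast stem cells (EpiSC), a female C57BL6 line grown in activin and FGF, stood beside them. Of the G1 cells 16 were labelled d0, 10 d2, 6 d3, 7 d4, 7 d6, 22 d7 and 4 EpiSC. The labels of 7 G1 cells named 2 days: 6 were d5 by name and d6 by cell type (d5/d6 below), and 1 was d2 or d3. These 7 enter every total but no state. No label named separate cultures or animals, so each state is 1 sample, the cells within it are not replicates, and no test between states was made.

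A cell in G1 has not begun to copy its DNA, so every locus is present at the same copy number on both homologues. In S phase the genome is copied in domains that follow a reproducible order, with gene-rich, open chromatin first and the lamina-associated compartment last. A G1 library is the baseline of single-cell Repli-seq: reads of S-phase cells are set against it, and a bin is called replicated where its reads stand higher than elsewhere in that cell. Replicated calls in a G1-sorted cell are therefore called residual here, and the questions are how many there were, whether they fell on the same bins in different cells, and whether they followed the order of S phase.

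The replication score is the percentage of a cell's called bins that were called replicated, over 30890 bins of 80 kb on chromosomes 1 to 19 (mm9). The number of bins with a call stands in for depth, since read totals were not used here; it ran from 25557 to 29809 in the G1 cells. The authors built 14 controls by merging G1 cells and corrected every cell against 1 of them. Of the 79 G1 cells 41 were themselves merged into such a control, and 38 were only corrected with one. All 15 G1 cells deposited in a previous series belonged to the merged ones. Because a merged cell is compared with a reference that contains it, the merged and the other cells are also given apart. The authors chose which cells to merge, and whether that choice depended on replicated calls was not tested.

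Most G1 cells had almost no replicated bins. The score had a median of 0.195% and ran from 0 to 10.6%, 27 cells lay under 0.1% and 7 had no replicated bin at all. The merged cells had a median of 0.0642% and a highest value of 0.737%, and all 7 cells without a replicated bin were among them. The cells that were not merged had a median of 2.07%, with a range of 0.0672% to 10.6%. Summed over cells, the merged cells held 1181 replicated calls and the others 28959. Of the 14 controls 10 had both kinds of cell, and in 7 of the 10 every merged cell lay below every cell that was not merged.

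The states differed in how many of their cells were merged, so state medians over all cells mix both kinds. At d0, where 14 of 16 cells were merged, the median was 0.105% (0.0202% to 3.56%). The 4 EpiSC cells were all merged and lay between 0 and 0.0270%, the lowest range of any state. At d2, with 5 of 10 cells merged, the median was 1.56% (0.0638% to 10.6%), and every cell that was not merged was at 2.96% or above. At d3, with 2 of 6 cells merged, the median over all cells was 0.708% (0.319% to 7.52%) and that of the cells outside the control 0.861%. At d4, with 4 of 7 merged, it was 0.0439% over all cells (0 to 8.99%) and 1.54% over the 3 others. At d6, with 2 of 7 merged, the values were 0.814% (0.0642% to 4.01%) and 1.07%, and at d7, with 8 of 22 merged, they were 1.31% (0 to 7.16%) and 2.29%. The d5/d6 cells, 2 of 6 merged, had a median of 0.322% (0 to 1.27%) and of 0.428% without the merged ones. Among cells that were not merged, d2 had the highest median, at 5.24%. Over all cells, the states overlapped in range except for EpiSC against d2, d3 and d6. State and merging cannot be told apart for EpiSC, which had no cell outside its control.

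**Figure D1:**
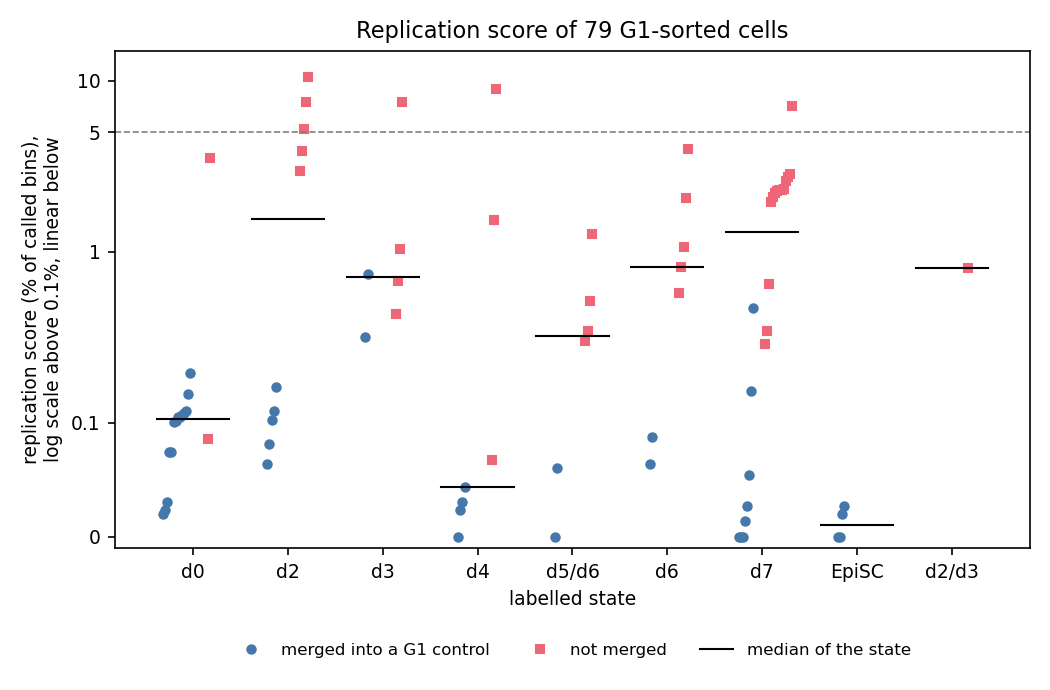
Replication score of each of the 79 G1-sorted cells (vertical axis, percent of called bins, log scale above 0.1% and linear below) by labelled state (horizontal axis). Circles are cells merged into a G1 control, squares are cells that were not, black lines are state medians and the dashed line marks 5%; every point above that line is a square.

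A score over 5% was found in 6 of 79 cells, or 7.59% (95% Clopper-Pearson interval 2.84% to 15.8%, counting error only). All 6 were among the 38 cells that were not merged, which makes 15.8% of those (6.02% to 31.3%), against 0 of 41 merged cells, where 3 counts of 41, the limit used for a count of 0, come to 7.32% and the upper Clopper-Pearson bound is 8.60%. They were d2 cell 6 at 5.24%, d7 cell 14 at 7.16%, d2 cell 4 at 7.48%, d3 cell 3 at 7.52%, d4 cell 1 at 8.99% and d2 cell 5 at 10.6%. The cells just under the threshold were d2 cell 7 at 3.86% and d6 cell 4 at 4.01%, so no cell lay between 4.01% and 5.24%. The 3 d2 cells over 5% were corrected with the same control, as was d2 cell 2 at 2.96%, so the 6 cells are not independent counts. Since the merged cells were chosen by the authors and corrected against themselves, the 2 intervals are not a test of merged against other cells.

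To ask whether residual bins followed S phase, the bins were ordered by the share of S-sorted cells of the same state that had replicated them. The order was then used to rank each G1 cell's replicated bins against its unreplicated ones. The area under the curve (AUC) of this ranking is 1 when all replicated bins come first in the order, 0.5 when they are spread evenly and below 0.5 when they lie towards its late end. It was computed for the 52 G1 cells with at least 30 replicated bins, and it ran from 0.144 to 0.951 with a median of 0.572. In 7 cells it reached 0.8 and in 20 it lay below 0.5. The 16 merged cells among the 52 had a median of 0.512 and the 36 others 0.607. The S-sorted cells with scores of 5 to 12%, 30 in all, had AUCs of 0.627 to 0.953 with a median of 0.890.

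The 6 cells over 5% were spread along this scale, from 0.365 to 0.951. For d4 cell 1 the AUC was 0.951, above each of the 10 S-sorted cells closest to it in score (0.627 to 0.946; 2 of these had fewer than 20000 called bins). For d2 cell 5 it was 0.907, with 5 of its 10 score-matched S cells lower (1 of the 10 with fewer than 20000 called bins), and for d7 cell 14 it was 0.895, again with 5 of 10 lower. These 3 cells were thus within or above the range of S cells with as many replicated bins. The S cells were matched by score alone, over all states, gates and controls, and include cells from gates named for later S phase. For d2 cell 4 the AUC was 0.821, with 2 of 10 matched S cells lower. For d2 cell 6 it was 0.596 and for d3 cell 3 it was 0.365, in each case lower than all 10 matched S cells (0.603 to 0.907 and 0.728 to 0.953). The S cell at 0.603, cell 12 of the d2 gate named 65perS, was corrected with the same control as d2 cell 6. Only d3 cell 3, of the 6, had its replicated bins towards the late end of the order.

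**Figure D2:**
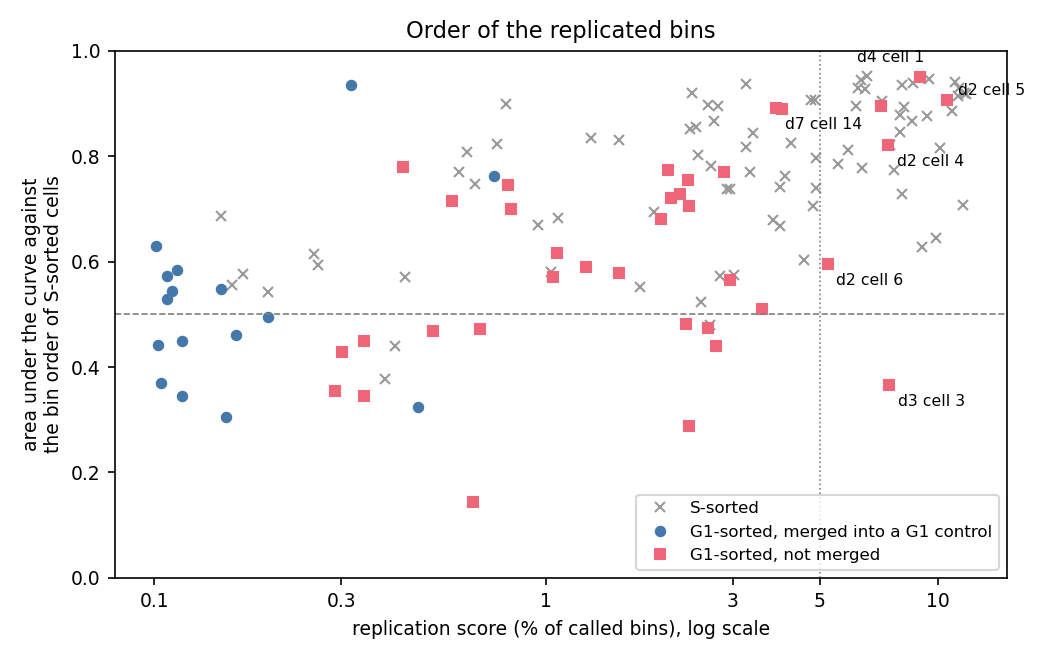
Area under the curve with which the bin order of S-sorted cells ranks replicated over unreplicated bins (vertical axis, 0.5 is no order) against the replication score (horizontal axis, percent, log scale). Circles are merged G1 cells, squares are G1 cells that were not merged and crosses are S-sorted cells under 12%; 4 of the 6 labelled G1 cells over 5% lie among the crosses at 0.821 to 0.951, while d2 cell 6 (0.596) and d3 cell 3 (0.365) lie below.

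The same cells can be read along the order itself, cut into 10 equal deciles. In d4 cell 1, 62.3% of the bins in the earliest decile were replicated, and none in the latest. In d2 cell 5 the earliest decile was 61.8% replicated and the latest 0.101%, and in d7 cell 14 the values were 42.5% and 0.339%. The matched S cells had medians of 48%, 59.6% and 39.7% in the earliest decile. These 3 cells had a steep fall over the first 3 deciles. In d2 cell 4 the earliest decile was 39.1% replicated, close to the median of its S cells (39.7%), and the fifth decile held 4.49%, against 3.07% in d2 cell 5, 2.37% in d7 cell 14 and 0.638% in d4 cell 1. In d2 cell 6 the earliest decile was 12.5% replicated, within the range of its S cells (9.94% to 33.3%), and the latest decile 2.64%, above that range (0 to 1.31%). In d3 cell 3 the share rose from 4.29% in the earliest decile to 14.1% in the latest, where its S cells had at most 2.38%.

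**Figure D3:**
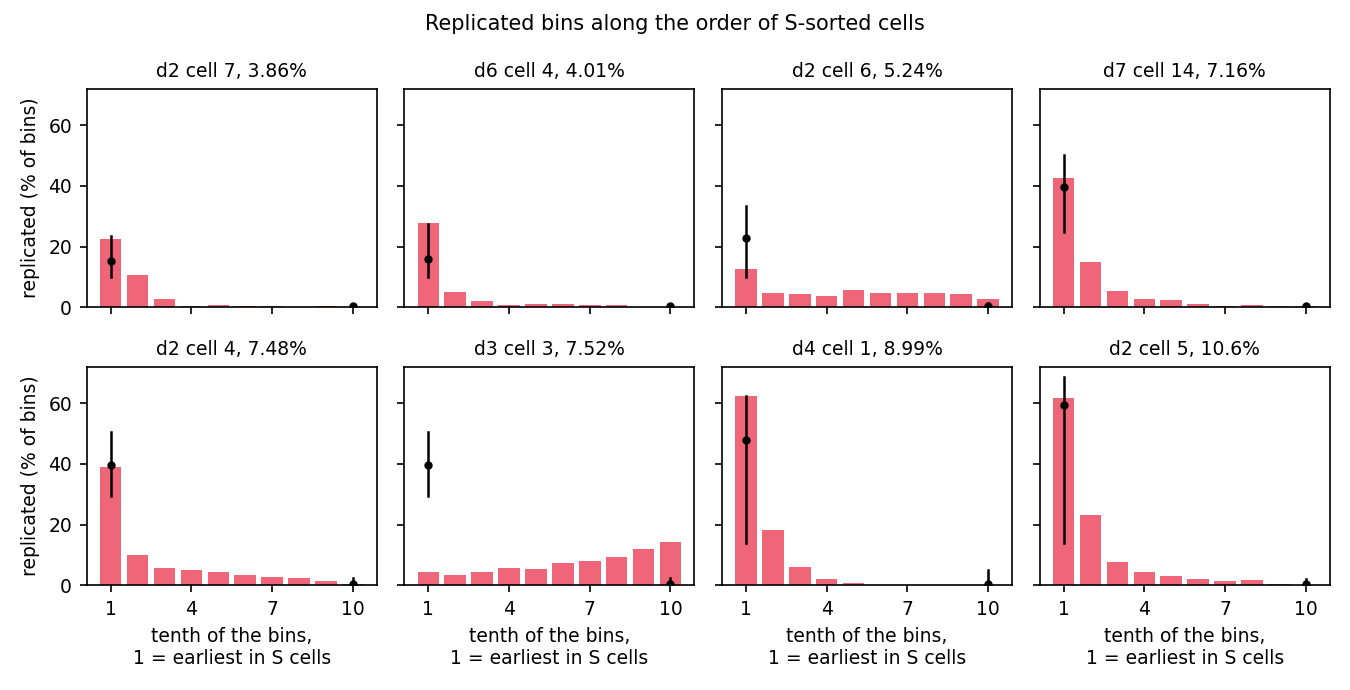
Percent of bins replicated (vertical axis) in each decile of the bins, from the earliest (1) to the latest (10) in S-sorted cells of the same state (horizontal axis), for the 6 G1 cells over 5% and the 2 just under it. Black points and lines give the median and range of the 10 S-sorted cells closest in score, for the first and last deciles; d4 cell 1 falls from 62.3% to 0, whereas d3 cell 3 rises from 4.29% to 14.1%.

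The longest stretches of replicated bins told the same cells apart. In d4 cell 1 the longest run was 33 bins on chromosome 4 (chr4:131760001-134400000), bins that on average 87.9% of d4 S cells had replicated. The next longest were 24 bins at chr10:126400001-128320000 (87.2% of S cells) and 23 bins at chr2:155600001-157440000 (88.5%). In d2 cell 5 they were 23 bins at chr4:128560001-130400000, 18 at chr13:54960001-56400000 and 15 at chr5:121040001-122240000, each replicated in 80.5% to 83.5% of d2 S cells. In d7 cell 14 they were 26 bins at chr11:115120001-117200000, 22 at chr5:124320001-126080000 and 20 at chr7:51600001-53200000, at 91.6% to 93.5% of d7 S cells. All 9 stretches thus lay in early replicating DNA. Chromosome 11, a gene-rich chromosome, had the largest replicated share in each of these cells: 21.2% in d4 cell 1, 23.5% in d2 cell 5 and 17.6% in d7 cell 14.

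In d2 cell 4 the longest runs all lay on chromosome 8, with 40 bins at chr8:72320001-75520000, 32 at chr8:107440001-110000000 and 24 at chr8:95920001-97840000. S cells at d2 had replicated them in 72% to 82.9%. Chromosome 8 was 35.3% replicated in this cell and held 24.8% of its replicated bins; the remaining chromosomes together were at 5.94%. In d2 cell 6 chromosome 8 was 42.6% replicated and held 42.9% of all replicated bins, with 3.16% replicated elsewhere. Its longest runs were 19 bins at chr3:154560001-156080000, which only 18.5% of d2 S cells had replicated, 19 at chr8:112960001-114480000 (86.1%) and 18 at chr6:65360001-66800000 (57.3%). Leaving chromosome 8 out moved the AUC little, to 0.834 in d2 cell 4 and 0.614 in d2 cell 6. Of the replicated bins 23.6% stood alone in d2 cell 6, within the range of its matched S cells (5.01% to 46.1%), 14.3% in d2 cell 4, 10.9% in d2 cell 5, 9.09% in d7 cell 14, 3.44% in d4 cell 1 and 0.181% in d3 cell 3.

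In d3 cell 3 the replicated bins lay in long stretches on 3 chromosomes. Chromosome 6 was 57.6% replicated, chromosome 12 49.7% and chromosome 8 21.2%, and the other 16 chromosomes together 0.560%. The longest runs were 143 bins (11440 kb) at chr6:10800001-22240000, 96 bins at chr6:39760001-47440000 and 92 bins at chr12:60240001-67600000, which 38.1% to 42% of d3 S cells had replicated. The median run was 8 bins, against 1 to 3 bins in the other 5 cells and 2 to 3 in its matched S cells. Outside the 3 chromosomes 138 replicated bins were left, and their AUC was 0.665.

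Chromosomes far above the rest of the cell were also present at lower scores. By a rule chosen after the values were seen (at least 20% of a chromosome replicated, and at most 5% of the remaining chromosomes), 9 G1 cells had such a chromosome. The 9 include d3 cell 3 and d2 cell 6, although the latter had only 42.9% of its replicated bins on that chromosome. None was merged into a control, but merged cells scored at most 0.737%, which left them little room to meet the rule. In d7 cell 21 chromosome 15 was 98.0% replicated and held 97.4% of the cell's replicated bins, with 0.0701% replicated elsewhere. In d0 cell 13 chromosome 12 was 78.6% replicated, with 79.2% before its midpoint (proximal side) and 78% beyond it (distal side), and all else was at 0.138%. In d7 cell 9 it was chromosome 8 (42%, elsewhere 0.0784%), and in d7 cell 7 chromosome 18 (44.1%, elsewhere 0.719%). These are shares of called bins, and calls were missing in the first of them: d7 cell 21 had a call on 754 bins of chromosome 15, where the other G1 cells had a median of 1255, so its 739 replicated bins were 58.9% of that usual number. In d0 cell 13 chromosome 12 had 1289 called bins, against a median of 1451, and its 1013 replicated bins were 69.8% of that number. In d7 cells 7 and 9 the called bins were 99.9% and 99.5% of the usual number. Within these chromosomes the S-phase order ranked the replicated bins with AUCs of 0.545, 0.681, 0.477 and 0.237.

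Chromosome 12 was involved in 5 of the 9 cells, with different stretches. In d4 cell 2 it was 28.2% replicated, all of it on the distal side, with a run of 149 bins at chr12:89760001-101680000. In cell 5 of the d5/d6 cells it was 20.6% replicated, also distally (39.3% against 0.707% on the proximal side). Of the replicated chromosome 12 bins of d5/d6 cell 5, 74.5% were also replicated in d4 cell 2. In d4 cell 2 28.2% of the whole chromosome was replicated, but 54.3% of the distal side. In d6 cell 2, just under the rule at 19.99%, 70.9% of the replicated chromosome 12 bins were shared with d4 cell 2. In d7 cell 10, by contrast, the proximal side was 56.5% replicated and the distal side 11.0%, and no bin was shared with d4 cell 2. Of its bins 71.1% were shared with d3 cell 3. In d3 cell 3 49.7% of the whole chromosome and 71.2% of the proximal side were replicated, so this overlap was close to that of the proximal side alone. These pairs were corrected with different controls. In d7 cell 10 chromosome 12 held 59.5% of the replicated bins, and the longest run, 222 bins, lay on chromosome 3 (chr3:137120001-154880000). The other chromosomes that met the rule in the 9 cells were 6 (1 cell), 8 (3 cells), 15 (1 cell) and 18 (1 cell).

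**Figure D4:**
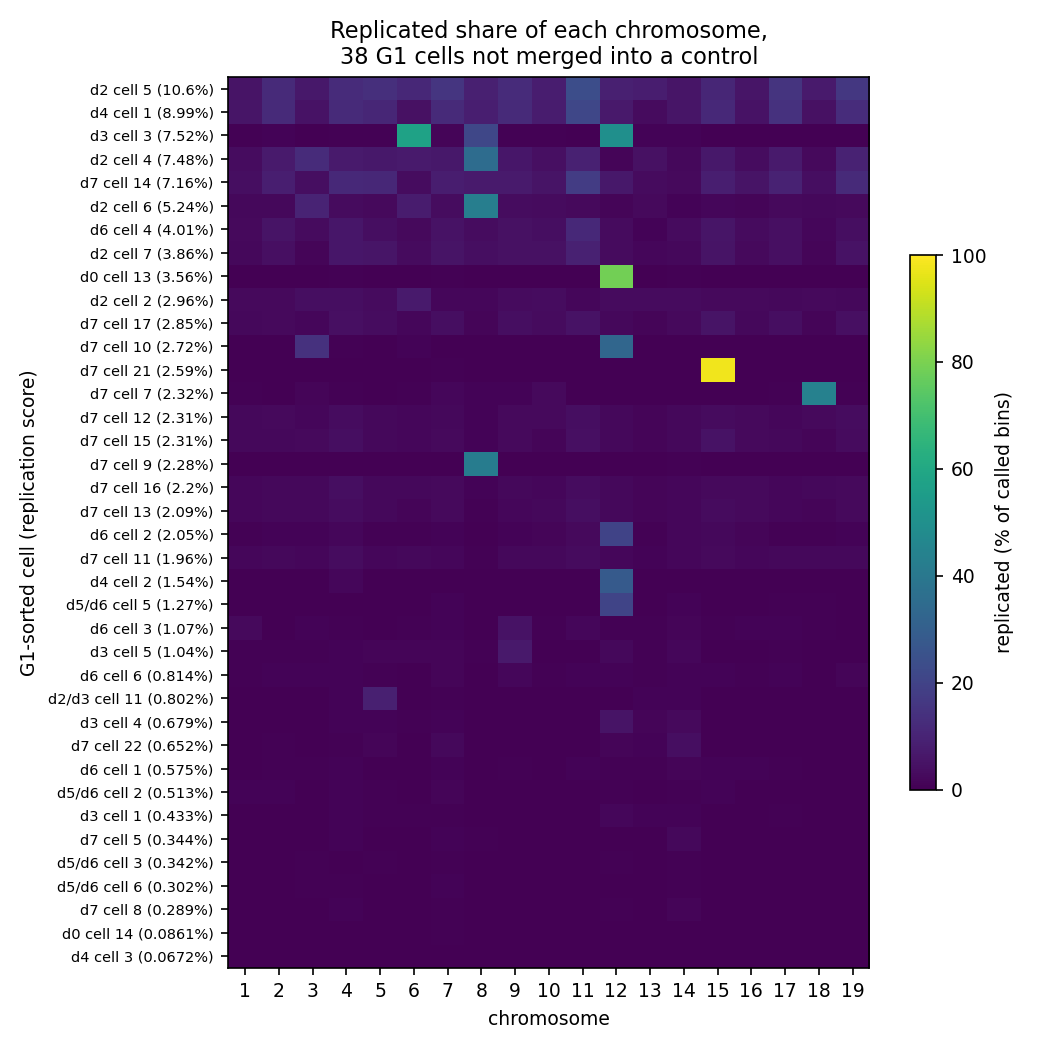
Percent of called bins replicated on each of chromosomes 1 to 19 (columns) in the 38 G1 cells that were not merged into a control (rows, ordered by replication score, which is given in brackets). Isolated bright squares are cells with a chromosome far above the rest, such as chromosome 15 in d7 cell 21, at 98.0% of 754 called bins, while the faint even rows of d2 cell 5 and d4 cell 1 reach no more than 23.5% and 21.2% on any chromosome.

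Cells under 5% also had AUCs on both sides of 0.5. The cells just under that threshold, d2 cell 7 and d6 cell 4, had AUCs of 0.891 and 0.890, and 90.01% and 85.3% of their replicated bins lay in the earliest 25% of the order. In d2 cell 2, at 2.96%, the AUC was 0.565 and 62% of the replicated bins stood alone. In d3 cell 5 (1.04%) and d6 cell 3 (1.07%) the AUCs were 0.572 and 0.617, with 33.4% and 23.7% of the replicated bins on chromosome 9. At d7, 7 cells (numbers 11 to 17) had been corrected with the control built from d6 cells. They include cell 14, described above. The 7 cells scored 1.96% to 7.16% and had AUCs of 0.681 to 0.895, with 496 to 634 separate runs each. No chromosome held more than 12.4% of a cell's replicated bins. The share of replicated bins that stood alone had a median of 70.5% in these cells, from 9.09% in cell 14 to 75.0%. The 7 other d7 cells outside the controls, corrected with controls built at d7, scored 0.289% to 2.72% and had AUCs of 0.144 to 0.481, with 53 to 326 runs and 22.1% to 97.4% of the replicated bins on 1 chromosome. The AUCs of these 2 sets of d7 cells did not overlap; the control used and any other difference between the sets cannot be told apart.

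Some residual calls fell on the same bins in several cells. Among the 29768 bins called in at least 50% of the G1 cells, 13148 (44.2%) were replicated in at least 1 G1 cell, 6778 (22.8%) in 2 or more, 3970 (13.3%) in 3 or more, 1255 (4.22%) in 5 or more and 120 (0.403%) in 10 or more. The 79 cells held 30140 replicated calls in all, about as many as there are bins, so calls placed independently would also coincide. The counts that such placement would give were not computed. The number at 3 or more cells moved with the cells included: without the 6 cells over 5% it was 1505 (5.06%), without the d2 cells 2183 and without the d7 cells 2417. Counted as 3 or more different controls, so that cells sharing a reference count once, it was 2193 bins. Without the 14 cells corrected with or merged into the d6 control it was 2564, and without the 4 cells corrected with the d2 control of d2 cells 4, 5 and 6 it was 2435.

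The recurrent bins were early replicating in S phase. The share of S cells with scores of 40 to 70% that had replicated a bin had a median of 47.8% for bins replicated in no G1 cell. It was 64.04% for bins replicated in 1, 88.3% for 2, 94.1% for 3 to 4 and 96.2% for 5 to 9 G1 cells, with 59.7% over all bins. Without the 6 cells over 5% the median was 56.4% for bins replicated in no cell and 91.1% for those in 3 or more. By controls, it was 96.2% for the bins replicated under 3 or more different controls. The bins are not independent, since neighbours replicate together and the same few cells supply most calls.

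In the merged cells the recurrent bins were few and of another kind. In at least 1 merged cell 478 bins (1.61%) were replicated, and in 3 or more merged cells 46 (0.155%), with 11 on chromosome 4, 10 on chromosome 14 and 9 on chromosome 7. They formed 36 regions, of which 33 were single bins. Of the 46 bins 54.3% lay within 2 bins of a chromosome end or of a bin that most cells had no call for, against 0.924% of all bins, and they had a call in a median of 54 of the 79 G1 cells, against 79. The median share of S cells of 40 to 70% with the bin replicated was 24.7%, below that of all bins. In S cells under 20% it was 13.3%, against 2.56% for all bins, and in S cells over 80% it was 74.8%, against 98.7%. These bins were thus above all bins at low scores and below them at higher scores, and were not simply late. In the cells that were not merged, 3873 bins (13%) were replicated in 3 or more, of which 2.25% lay near an end or a gap.

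From the side of the cell, the merged cells drew on a shared small set. In the 33 merged cells with at least 5 replicated bins, a median of 87.5% of the replicated bins were also replicated in a merged cell of another control, where 1.49% of all called bins were. In the 38 other cells the same share was 4.93%, against 1.47% of all called bins. Of the bins of these 38 cells, a median of 64.1% were replicated in some G1 cell of another control, against 39.5% of all called bins.

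**Figure D5:**
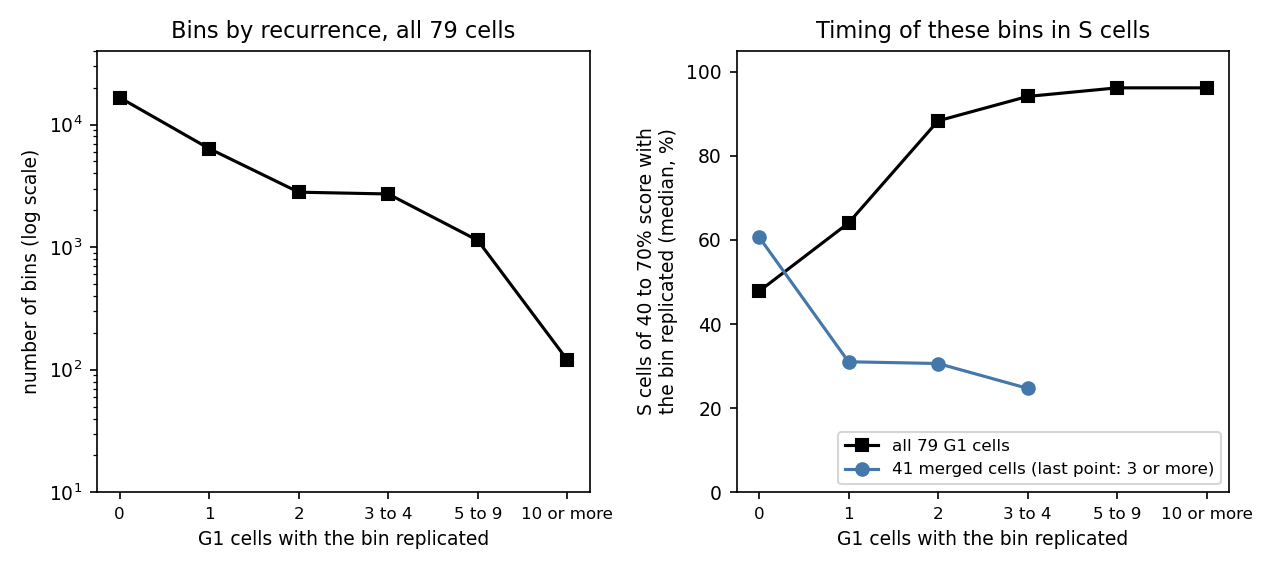
Left, number of bins (log scale) by the number of G1 cells in which they were replicated, over all 79 cells. Right, median percent of S-sorted cells with scores of 40 to 70% that had replicated these bins, which rises from 47.8% to 96.2% with recurrence over all 79 cells (squares) and falls to 24.7% over the 41 merged cells (circles).

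The bins replicated in 3 or more cells formed 1241 regions with a median of 2 bins, and the 8 whose top bin was replicated in the most cells were of both kinds. The first was chr4:42800001-42960000, where 24 of 47 cells with a call were replicated, 10 of them merged; it lies beside a gap in the calls, and 82.2% of S cells with scores of 40 to 70% had replicated its top bin. The next were chr15:79040001-80160000 with 16 of 77 cells and chr8:72320001-74320000 with 15 of 77, both without any merged cell and both replicated in 5 of the 6 cells over 5%. Those S cells had replicated their top bins in 98.2% and 93.5%. The replicated G1 cells at these top bins fell under only 3 different controls each. The first region had 10 controls, and the others named below had 3 to 9. Then came chr4:60080001-61520000, with 15 of 48 cells, and chr14:42160001-42800000, with 15 of 73, replicated in 40.2% and 29.8% of the same S cells. The first bins listed on chromosomes 3 and 11 (chr3:2960001-3200000 and chr11:2960001-3200000) were replicated in 15 of 66 and 15 of 64 cells, and in 19.4% and 86.3% of the S cells. The last was chr5:143040001-143280000, with 14 of 44 cells and 83.7% of the S cells. Of the 8 regions 5 thus had top bins replicated in 82.2% to 98.2% of these S cells and 3 in 19.4% to 40.2%. The chromosome 15 and 8 regions were without merged cells, and the other 6 held 2 to 10 merged cells at the top bin.

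Pairs of high-scoring cells shared bins to very different degrees. Of the bins replicated in d4 cell 1, 46.2% were also replicated in d2 cell 5, against 10.6% of all bins called in both, and 36% in d7 cell 14, against 7.16%. These cells were corrected with 3 different controls. Of the bins of d3 cell 3, 1.27% were replicated in d4 cell 1, against 9.02% of all bins. Of the bins of d2 cell 6, 52.6% were replicated in d2 cell 4, against 7.35%, but only 11.4% in d4 cell 1 (8.97% of all bins) and 5.37% in d2 cell 7 (3.85%). Cells 4 and 6 of d2 share a control and cell 7 does not, and part of the order used for d2 came from S cells with that same control. With the order taken only from d2 S cells of another control, the AUC was 0.508 for d2 cell 6, 0.742 for d2 cell 4 and 0.850 for d2 cell 5.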

How the data were processed

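Single cells were sorted by DNA content, amplified with SeqPlex and sequenced, per the labels' protocols. The build was mm9, and the tools named were Picard, BWA (0.7.10-r789) and cutadapt, per the submitters' processing notes. Each cell had been corrected for mappability by the authors with a merged G1 control, and the deposited calls are 1, -1 or 0 per 80 kb bin for replicated, unreplicated and no data, per the file headers; the authors' smoothing and thresholds fix the resolution of every call. The deposited replication score is a fraction; recomputed from the calls it differed by at most 5.00e-08 percentage points. The members and lists were chosen with earlier results of these data known.

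Cells were G1 by name, and states came from the titles. The bin order used bins called in at least 50% of the S cells; S cells were left out of their own order. Regions joined recurrent bins with at most 1 bin between them; the 8 with the most cells at the top bin, and the 3 longest runs of each cell over 5%, were named. Genes were not placed, because the available annotation uses a build other than mm9. Coordinates are 1-based. No 2 columns with replicated bins were identical. Steps were tested on simulated data. The software was matplotlib 3.10.9, scipy 1.17.1, pandas 2.3.3 and numpy 2.4.6 under Python 3.11.15. Alternatives covered membership, bin filters, recurrence thresholds, bin orders, window size and run joining; splits by merging and by control were added after seeing the data.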

Additional observations from a re-analysis of the deposited data

Results flagged for a closer look

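In groups of 4 to 10 cells, 2 cells stood further from their group than Dixon's 95% critical value, which chance passes in about 1 in 20 groups. The groups hold merged cells too, 2 at d3 (0.319% and 0.737%) and 4 at d4 (0 to 0.0439%). These were corrected against a reference that contains them, so the rate of 1 in 20 may not hold for such mixed groups. The comparison was not repeated without the merged cells. At d3, cell 3 scored 7.52% while the next highest of the 6 cells scored 1.04%. The gap was 0.899 of the range, against a critical value of 0.625. At d4, cell 1 scored 8.99% while the next highest of the 7 cells scored 1.54%, a gap of 0.829 of the range against 0.568. The replicated bins of these 2 cells leaned in opposite directions along the order of S cells, with areas under the curve of 0.365 and 0.951. Those of d3 cell 3 were spread over the whole order, and outside its 3 most replicated chromosomes the area was 0.665.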

How the results depend on the processing

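The number of bins replicated in 3 or more G1 cells (3970) was 6778 at 2 or more cells and 1255 at 5 or more. It was 1505 without the 6 cells over 5%, 46 in the merged cells alone, 2193 by different controls, 2564 without the d6 control and 2435 without the 4 cells of the d2 control. Leaving out 1 state or 1 cell over 5% at a time gave 2183 to 3970. For d2 cell 6 the area under the curve was 0.705 with the order from S cells of 5 to 30%. It was 0.534 with S cells of 40 to 70%, 0.516 with S cells of all states and 0.508 with S cells of another control. For d2 cell 4 it was 0.742 with S cells of another control. No area under the curve of the 6 cells crossed 0.5 under any alternative run, but that of d2 cell 6 came close to it. For d3 cell 3 and d4 cell 1 no order from S cells of another control was run. A threshold of 8% left 2 cells and one of 3% gave 9. Joining runs across bins without a call made the median run of d3 cell 3 9 bins in place of 8. The median score of 0.195% was 0.0642% in merged cells, 2.07% in the others, 0.492% without previous-series cells, 0.331% without the titles that write a hyphen and 0.0441% over bins called in 90% of the G1 cells. The cause of each of these shifts was not tested. No paired analysis was possible because cell numbers do not pair cells across states and no test between groups was made. Limits are the lack of read depth, 1 sample per state, and controls that differ between states.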

Other observations

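Single chromosomes with many replicated bins were also present in S-sorted cells of low score. Of 805 S-sorted cells 54 had a score of at most 5%, 19 were under 1% and 7 lay below the G1 median. The rule used for the G1 cells (at least 20% of a chromosome, at most 5% of the rest) found such a chromosome in 11 of the 120 S-sorted cells under 20%, and in 9 of the 54 at or under 5%. At d2, cells 6 and 12 of the gate named 65perS scored 3.796% and 4.55% and had chromosome 8 replicated at 42.7% and 45.2%, next to 42.6% in G1 cell 6; all 3 were corrected with the same control. Of the 25 d2 S cells under 20% with that control, chromosome 8 was above the rest of the genome in 5.

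Chromosome 12 was such a chromosome in 7 of the 11 S-sorted cells. In 6 of these the replicated bins lay beyond its midpoint, as in d4 cell 2 and d5/d6 cell 5, and all 6 had been corrected with the control built from d6 cells. The remaining one, d7 cell 31 of the gate named 25perS, was 52.6% replicated before the midpoint of chromosome 12 and 5.84% beyond it, next to 56.5% and 11.0% in d7 G1 cell 10, which shares its control. The longest run of that S cell, 221 bins, lay outside chromosome 12, where its longest was 44 bins. Among 5 d6 G1 cells with the d6 control, the median share of chromosome 12 from 75 Mb to the end was 1.75%, and among the 17 d6 S cells under 20% it was 19.1%, where the rest of the genome had medians of 1.10% and 9.58%. Among 13 d7 S cells under 20% with the d6 control this share was 35.1% (rest 4.35%). It was 0.188% (rest 0.861%) in 8 with the control built from d7 cells 1 to 3, and 20.4% (rest 12.9%) in 1 with another d7 control. Among 7 d7 G1 cells with the d6 control it was 3.16% (rest 2.32%). The part of the controls in these values was not tested.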
